A study of Mus musculus with 18 samples.

Results

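The 9 genes described here encode enzymes that add methyl groups to lysine 36 of histone H3 (H3K36) or take them off, and they were chosen by symbol among the 20703 genes of the expression table. They comprise 5 methyltransferases (Nsd1, Nsd2, Nsd3, Setd2 and Ash1l) and 4 demethylases (Kdm2a, Kdm4a, Kdm4b and Kdm4c). RNA-seq was carried out on E14 cells, a line of mouse embryonic stem cells (mESCs), that were either Nsd1-WT or Nsd1-KO. The question asked of the data was whether the other H3K36 enzymes moved when Nsd1 was lost. Cells were collected at day 0, in the presence of LIF and feeder fibroblasts (MEFs), and at day 2 and day 4 after both were withdrawn, which starts differentiation in a monolayer. The WT cells were 1 line, and the KO cells were 2 clonal lines, KO-1 and KO-2, each derived from a single cell, with 2 biological replicates per line and day and 18 libraries in all. Both KO clones carry a homozygous deletion of exon 5 of Nsd1 and were made in cells with a 3×Flag tag knocked in at both Nsd1 alleles. Whether the WT libraries also carry that tag is not given in the labels. The total count on genes ranged from 9309874 to 23921193 per library, with a median of 15721348. At day 2 it was 9309874 and 9356867 in the WT libraries and 14595828 to 19445827 in the KO libraries. The part of this difference in depth in the comparisons of day 2 was not tested.

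Methylation of H3K36 marks active chromatin and is laid down by different enzymes in different places. NSD1, NSD2, NSD3 and ASH1L carry out mono- and di-methylation, which spreads over broad domains of genes and the intergenic regions around them. SETD2 carries out tri-methylation over gene bodies and travels with elongating RNA polymerase II. KDM2A, which binds CpG islands, removes the lower methylation states, whereas KDM4A, KDM4B and KDM4C remove methyl groups from tri-methylated H3K36 and also from H3K9. In mESCs the mark is read by DNA methyltransferases and by Polycomb-associated proteins, among others.

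The reference sequence around the deleted exon is shown because it determines what the remaining Nsd1 transcript could encode. The deletion was made with guides in introns 4 and 5, so the edges below are those of the exons in the reference, not the ends of the deletion in the clones. In the GENCODE M21 annotation on GRCm38, exon 5 of the 23-exon transcript Nsd1-201 is a coding exon of 2560 bases on the plus strand (chr13:55245518-55248077). It makes up 20.0% of the 12784 bases of the transcript, and its length leaves 1 base over from whole codons. In the sequences below, all 5′ to 3′ on the plus strand, the last 30 bases of exon 4 (chr13:55238833-55238862) come first. The first 30 and the last 30 bases of the deleted exon 5 follow (chr13:55245518-55245547 and chr13:55248048-55248077). The last line runs from the start of exon 6 (chr13:55260344-55260468) into the first 4 bases of exon 7 (chr13:55261544-55261547), with the stop codon that a join of exon 4 to exon 6 brings into frame in capitals.
end of exon 4: aaacagaaagaaaaaggatataggcataag
start of exon 5: gttcctcagaagattttgagtaaatgggaa
end of exon 5: tgatgccacagaccaagctccctgagccag
exon 6 to the stop: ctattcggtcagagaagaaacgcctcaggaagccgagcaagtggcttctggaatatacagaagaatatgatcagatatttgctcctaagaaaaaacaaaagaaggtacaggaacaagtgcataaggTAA
Read from this reference sequence, the joined transcript would encode 455 residues before the stop, in place of the 2691 annotated. The reads themselves were not used here, so the junctions present in the 2 clones were not examined.

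Among the other 8 enzymes, Nsd2 was higher in the KO libraries at all 3 days, by 1.70- to 2.00-fold in mean normalized count. Kdm4c was 2.40-fold higher in the KO libraries at day 4, when its level had dropped steeply in WT cells. Nsd3, Setd2, Kdm2a and Kdm4c rose by smaller amounts at day 2, and Kdm4a at day 4. None of the 8 was lower when the 4 KO libraries of a day were tested against WT. Libraries were compared by limma on the deposited values, which are on a log2 scale after a variance stabilizing transformation (VST), in 1 fit of all 18 libraries. Genes with an adjusted p under 0.01 that also differed by more than 0.58 on the log2 scale are termed differentially expressed genes (DEGs). The second rule used below is an adjusted p under 0.05 with no limit on the fold. As a DEG, 1 of the 8 was higher at day 0, 1 at day 2 and 2 at day 4, where 1.73%, 4.01% and 3.67% of all genes were called higher. None of the 8 was a DEG in the lower direction, in which 0.879%, 2.37% and 3.91% of all genes were called. With an adjusted p under 0.05, 1, 5 and 3 of the 8 were higher, against 15.3%, 21.8% and 18% of all genes. By this rule 0 of the 8 were lower, against 14.4%, 24.2% and 19.2% of all genes, and also 0 at an unadjusted p under 0.05 by limma and 0 at an adjusted p under 0.05 by limma-voom, a second fit made on counts recovered from the deposited values. The median log2 fold change of the 8 was 0.15, 0.25 and 0.18, and that of all genes lay between −0.02 and 0.00. Log2 fold changes on the VST scale are compressed for genes with fewer counts, so fold ratios of normalized counts are given beside some of them.

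**Figure D1:**
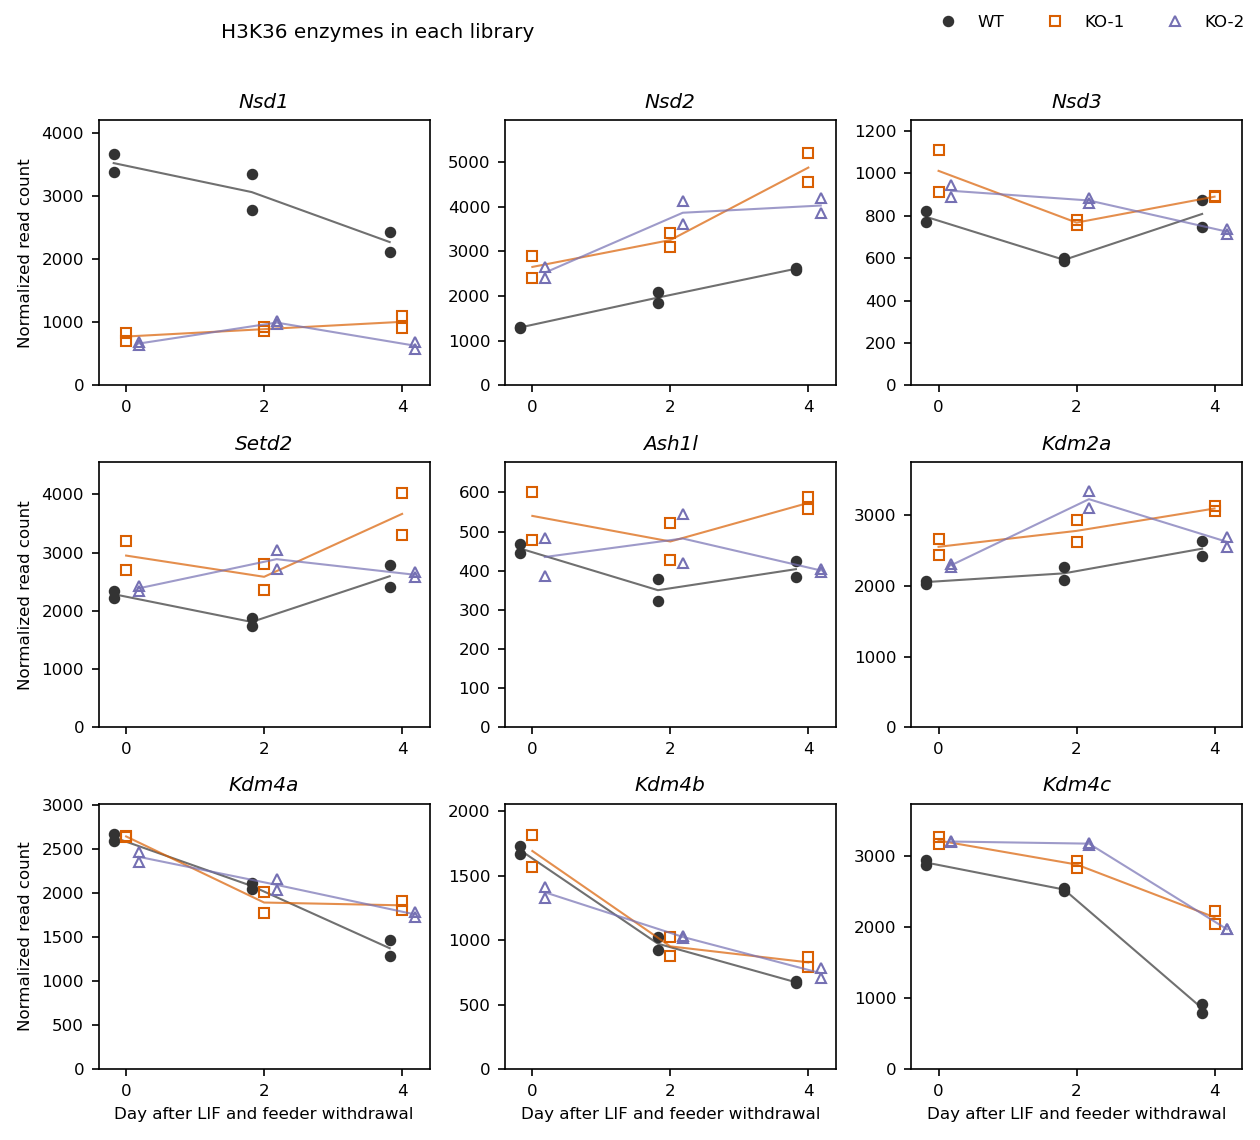
Normalized read counts (vertical axes, starting at 0) of the 9 H3K36 enzymes at day 0, 2 and 4 (horizontal axes) in the WT, KO-1 and KO-2 libraries, with 1 point per library and lines through the means of each line's 2 replicates. The Nsd1 points of the KO lines lie far below those of WT, the Nsd2 points lie above them at each day, and the Kdm4c points separate at day 4, where WT had 791 and 921 and the KO libraries had 1966 to 2227.

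Nsd1 (ENSMUSG00000021488, chromosome 13), the gene deleted in part, was examined first in every library. At day 0 it had 3374 and 3660 normalized counts in the WT libraries, 837 and 711 in KO-1, and 689 and 635 in KO-2. At day 2 the WT libraries had 2773 and 3344 normalized counts, KO-1 had 854 and 927, and KO-2 had 964 and 1024. At day 4 the WT libraries had 2425 and 2111 normalized counts, KO-1 had 1103 and 910, and KO-2 had 575 and 684. In each of the 3 days the 4 KO libraries had fewer Nsd1 counts than either WT library, as their labels imply. The KO mean was 20.4% of the WT mean at day 0, 30.8% at day 2 and 36.1% at day 4. In the limma fit Nsd1 fell by 1.69 on the log2 scale at day 0 (SE 0.11, adjusted p = 8.77e-10), by 1.27 on day 2 (adjusted p = 1.82e-08) and by 1.06 at day 4 (adjusted p = 1.47e-07). Only 2 of the 20703 genes had a lower log2 fold change than Nsd1 at day 0. Loss of the exon 5 bases from the transcript would by itself change the count by −0.32 on the log2 scale, the length ratio of the transcript with and without that exon.

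The cell state of the libraries was checked with marker genes. The 8 mESC markers, genes of the pluripotent state, summed to between 83657 and 89433 normalized counts in all 6 libraries of day 0, with Tdgf1 as the most abundant gene and none of the 8 at 0. At day 2 the sum was 24095 and 27245 in WT and 28936 to 37064 in the KO libraries, and at day 4 it was 17726 and 18344 in WT and 22926 to 24273 in KO. At day 0 none of the 8 was a DEG, but 3 were higher and 2 lower in KO at an adjusted p under 0.05 (limma). By that rule 15.3% of all genes were higher and 14.4% lower. As DEGs, 5 of the 8 were higher and 1 lower in KO at day 2, and 6 were higher and 1 lower at day 4. Of all genes, 4.01% and 3.67% were DEGs in the higher direction at day 2 and day 4, and 2.37% and 3.91% in the lower. The 6 primitive streak and mesoderm markers summed to 31361 and 32378 in the WT libraries of day 4, led by T, and to between 328 and 871 in the KO libraries, led by Eomes, and all 6 were lower as DEGs. The part of these marker differences in the values of the H3K36 enzymes at day 2 and day 4 was not tested. In bulk RNA, fewer cells of a type and less RNA per cell cannot be told apart.

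To look for RNA of the feeder cells, 10 fibroblast markers were taken, of which 9 were measured and Col1a1 was the most abundant in every library. Their sum was 3213 and 3319 normalized counts in the WT libraries of day 0 and 4768 to 5619 in the KO libraries. At day 2 the order was the opposite, with 1156 and 1291 in WT and 632 to 839 in KO, and at day 4 WT had 2839 and 2964 and KO had 783 to 1459. In WT the sum was thus higher at day 4 than at day 2, both after the feeders were withdrawn. The sum therefore cannot be read as feeder RNA alone. As DEGs, 3 of the 9 were higher and 1 lower in KO at day 0, 1 was lower at day 2 and 2 were lower at day 4. Of all genes, 1.73%, 4.01% and 3.67% were DEGs in the higher direction at the 3 days, and 0.879%, 2.37% and 3.91% in the lower. The markers were unlike one another at day 0. Col1a1 averaged 1482 normalized counts in WT and 2732 in KO, Pdgfrb averaged 523 and 182, and Lum was at 0 in all 6 libraries. The part of feeder RNA in the day 0 differences was not tested.

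Nsd2 (ENSMUSG00000057406, chromosome 5), a paralogue of Nsd1 and a di-methyltransferase of H3K36, was the enzyme with the broadest change. Its normalized counts at day 0 were 1287 and 1309 in WT, 2892 and 2417 in KO-1, and 2643 and 2407 in KO-2. At day 2 it had 1845 and 2091 in WT, 3093 and 3419 in KO-1, and 3614 and 4122 in KO-2. At day 4 it had 2642 and 2587 in WT, 5205 and 4554 in KO-1, and 3869 and 4190 in KO-2. Every KO library exceeded both WT libraries of its day, and the groups did not overlap at any day. The KO mean was 2.00-fold, 1.81-fold and 1.70-fold the WT mean. By limma it rose by 0.76 on the log2 scale at day 0 (95% interval 0.56 to 0.96, adjusted p = 4.65e-06), 0.70 at day 2 (0.49 to 0.90, adjusted p = 6.46e-06) and 0.65 at day 4 (0.44 to 0.85, adjusted p = 1.42e-05). At day 0, 136 of the 20703 genes had a higher log2 fold change than Nsd2. The change at day 4 was near the limit on the fold, and fell below it when KO-2 was compared alone (0.53) or when the first KO-1 replicate of day 4 was left out (0.58, under the limit before rounding). The effect did not differ between day 4 and day 0 by more than its error (difference −0.11, 95% interval −0.40 to 0.17, adjusted p = 0.617).

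Nsd2 also rose with time in both genotypes. From day 0 to day 4 it increased by 0.77 in WT (limma, adjusted p = 6.37e-06) and by 0.66 in KO cells (adjusted p = 5.83e-07). The 4 KO libraries of day 0 had 2407 to 2892 normalized counts, a range that holds the 2587 and 2642 counts of the WT libraries of day 4. These are levels side by side, and no test was made across genotype and day together.

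Nsd3 (ENSMUSG00000054823, chromosome 8), the remaining member of the family, changed less. At day 0 the WT libraries had 820 and 768 normalized counts and the KO libraries 890 to 1110. WT had 598 and 585 at day 2, with 754 to 884 in KO, and 871 and 744 at day 4, with 714 to 892 in KO. The groups did not overlap at day 0 and day 2 and overlapped at day 4. Its change by limma was 0.17 at day 0 (adjusted p = 0.0703), passed the second rule at day 2 with 0.28 (95% interval 0.13 to 0.42, adjusted p = 0.00336), and was −0.00 at day 4 (−0.15 to 0.15, adjusted p = 0.99).

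To compare levels between the 3 NSD genes, normalized counts were divided by the length of the longest coding transcript in kb. In the WT libraries of day 0, Nsd1 held 51.7% and 54.0% of the NSD reads per kb, Nsd2 held 32.4% and 31.7%, and Nsd3 held 15.9% and 14.3%. In the 4 KO libraries of day 0, Nsd1 held no more than 12.2% and Nsd2 held 67.9% to 70.5%. The summed NSD level per kb was 510 and 530 in WT and 452 to 547 in the KO libraries of day 0, so the groups overlapped in the sum at this length. With the union of exons as length the sum was 319 and 334 in WT and 237 to 287 in KO, and every KO library of day 0 was below both WT libraries. At day 2 Nsd1 held 42.3% and 44.5% in WT and Nsd2 46.2% and 45.7%, and in KO Nsd2 held 73.4% to 76.2%. The order of Nsd1 and Nsd2 in WT at day 2 turned round with the union of exons, where Nsd1 held 53.3% and Nsd2 35.7% (means of 2 libraries). At day 4 Nsd2 was the most abundant NSD transcript in WT too, with 55.1% and 58.2% of the reads per kb, and it held 78.6% to 81.3% in KO. The sum per kb at day 4 was 615.2 and 571.0 in WT and 614.7 to 842.5 in the KO libraries, so the groups overlapped. They also overlapped with the union of exons, with 349 and 320 in WT and 308 to 427 in KO. The shares depend on the length taken: Nsd2-205, the longest coding transcript of Nsd2, has 9 exons and 7786 bases, whereas all its exons together cover 16803 bases. With the union of exons as length, Nsd1 held 61.6% of the NSD reads per kb in WT at day 0 and 16.2% in KO (means of 2 and 4 libraries), and Nsd2 held 23.7% and 60.8%. Leaving exon 5 out of the length of Nsd1 in the KO libraries raised its mean share at day 0 from 11.6% to 14.1%. The counts do not separate isoforms, and the share of Nsd2 reads from transcripts that encode the catalytic SET domain was not examined.

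**Figure D2:**
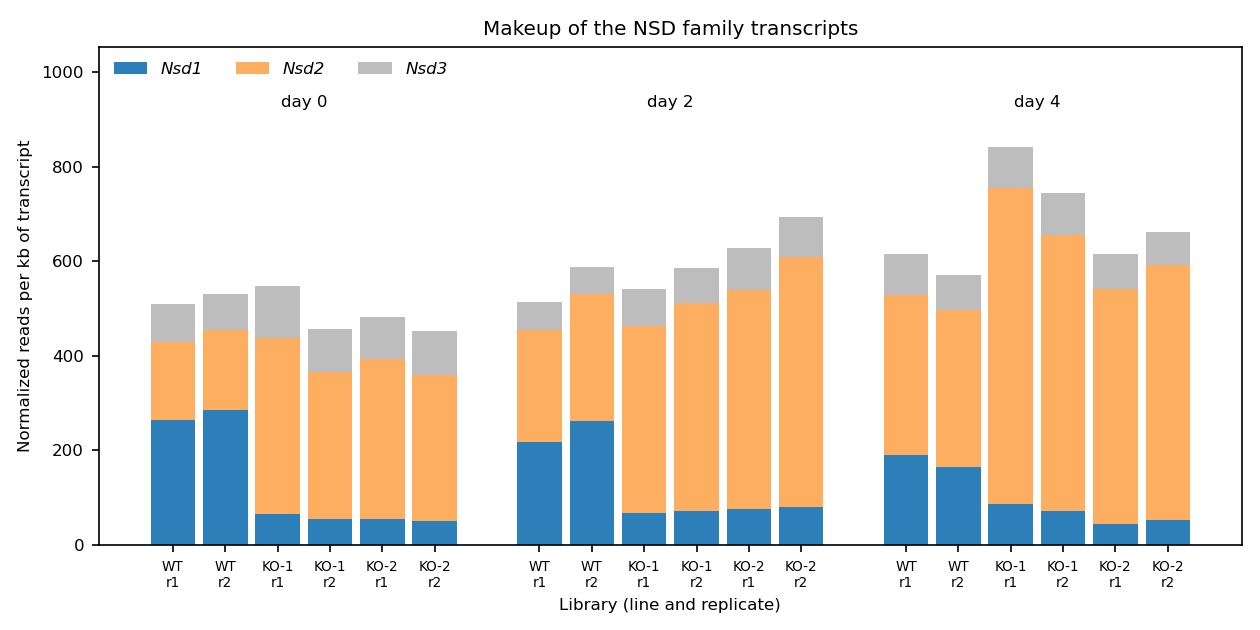
Normalized reads per kb of longest transcript (vertical axis, from 0) for Nsd1, Nsd2 and Nsd3, stacked in 1 bar per library and ordered by day, line and replicate (r1, r2). Nsd1 is the largest piece in the WT bars of day 0, at 51.7% and 54.0%, and Nsd2 is the largest in every KO bar, at 67.9% or more.

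The remaining methyltransferases outside the NSD family were Setd2 and Ash1l. Setd2 (ENSMUSG00000044791, chromosome 9), the tri-methyltransferase, had 2344 and 2227 normalized counts in the WT libraries of day 0, 3199 and 2698 in KO-1, and 2340 and 2431 in KO-2. At day 2 it had 1734 and 1883 in WT, 2365 and 2803 in KO-1, and 2721 and 3053 in KO-2. At day 4 it had 2779 and 2408 in WT, 4027 and 3303 in KO-1, and 2577 and 2663 in KO-2. The groups were apart at day 2 and overlapped at day 0 and day 4, where the high libraries were those of KO-1. At day 2 the KO mean was 1.51-fold that of WT, with a log2 fold change of 0.47 (95% interval 0.21 to 0.73, limma, adjusted p = 0.00383). The adjusted p was 0.0523 without the first WT replicate of day 2, and the log2 fold change was 0.42 to 0.53 with any 1 library left out. At day 0 its change was 0.17 (adjusted p = 0.324), and at day 4 it was 0.21 (adjusted p = 0.194). In KO-1 alone it was 0.30 at day 0 (adjusted p = 0.0116) and 0.41 at day 4 (adjusted p = 5.5e-04), and in KO-2 alone it was 0.050 and 0.014.

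Ash1l (ENSMUSG00000028053, chromosome 3), a Trithorax protein with di-methyltransferase activity, passed no threshold in the fit of all 18 libraries by 6 groups. It had 323 to 468 normalized counts in the 6 WT libraries and 388 to 602 in the 12 KO libraries. On the log2 scale it changed by 0.04 at day 0 (95% interval −0.14 to 0.23), 0.22 at day 2 (0.03 to 0.40, limma, adjusted p = 0.0514) and 0.13 at day 4 (−0.06 to 0.31). The 4 KO libraries of day 2, at 419 to 546 normalized counts, were above the WT libraries, at 378 and 323. The value of day 2 passed an adjusted p of 0.05 in 13 of 29 alternatives (0.14 to 0.44), and that of day 4 was 0.26 in KO-1 alone (adjusted p = 0.00717) and −0.0052 in KO-2 alone.

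Of the demethylases, Kdm2a (ENSMUSG00000054611, chromosome 19) rose at day 2. Its normalized counts at day 0 were 2077 and 2033 in WT and 2265 to 2669 in KO. They were 2086 and 2271 in WT and 2623 to 3347 in KO at day 2, and 2636 and 2418 in WT and 2555 to 3135 in KO at day 4. The groups were apart at day 0 and day 2 and overlapped at day 4. Its log2 fold change at day 2 was 0.37 (95% interval 0.20 to 0.54, limma, adjusted p = 8.87e-04), and it was 0.19 at day 0 (adjusted p = 0.0953) and 0.14 at day 4 (adjusted p = 0.192). In KO-1 alone the values of day 0 and day 4 were 0.25 and 0.24 (adjusted p = 0.00388 and 0.00344), and in KO-2 alone 0.12 and 0.045 (adjusted p = 0.151 and 0.639).

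The 3 KDM4 genes encode enzymes that share their substrates. Kdm4c (ENSMUSG00000028397, chromosome 4) had 2940 and 2877 normalized counts in the WT libraries of day 0, 3271 and 3165 in KO-1, and 3193 and 3215 in KO-2. At day 2 it had 2503 and 2553 in WT, 2831 and 2931 in KO-1, and 3161 and 3188 in KO-2. At day 4 it had 921 and 791 in WT, 2227 and 2048 in KO-1, and 1966 and 1973 in KO-2. The KO libraries exceeded those of WT on every day, by a narrow margin at day 0 and by a wide one at day 4.

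By limma Kdm4c changed by 0.12 on the log2 scale at day 0 (adjusted p = 0.151), 0.21 at day 2 (95% interval 0.09 to 0.34, adjusted p = 0.00683) and 0.89 at day 4 (0.77 to 1.02, adjusted p = 1.55e-10). At day 4, 321 of the 20703 genes had a higher log2 fold change. The value at day 2 had an adjusted p of 0.0601 without the first WT replicate of that day, and was 0.19 to 0.24 with any 1 library left out. The fit on recovered counts (limma-voom), which does not compress the scale, gave 1.27 at day 4 (95% interval 1.10 to 1.44, adjusted p = 1.03e-10).

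Kdm4a (ENSMUSG00000033326, chromosome 4) had 2669 and 2595 normalized counts in the WT libraries of day 0, 2643 and 2640 in KO-1, and 2353 and 2468 in KO-2. At day 2 the WT libraries had 2117 and 2042 and the KO libraries had 1772 to 2155. At day 4 the WT libraries had 1463 and 1282, KO-1 had 1808 and 1911, and KO-2 had 1732 and 1782. The groups overlapped at day 0 and day 2 and were apart at day 4, where the log2 fold change was 0.29 (95% interval 0.16 to 0.43, limma, adjusted p = 0.00101). Kdm4b (ENSMUSG00000024201, chromosome 17) passed no threshold at any day in the fit by 6 groups. Its normalized counts at day 0 were 1670 and 1726 in WT and 1326 to 1812 in KO. They were 921 and 1023 in WT and 880 to 1033 in KO at day 2, and 665 and 681 in WT and 707 to 866 in KO at day 4, where the groups did not overlap. Its log2 fold changes were −0.12 (95% interval −0.27 to 0.04), 0.01 (−0.14 to 0.17) and 0.13 (−0.03 to 0.29). With KO-2 compared alone, its change at day 0 was −0.23 (limma, adjusted p = 0.00996), and it was −0.18 without the first KO-1 replicate of that day (adjusted p = 0.0481). With KO-1 compared alone, its change at day 4 was 0.18 (adjusted p = 0.0288).

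**Figure D3:**
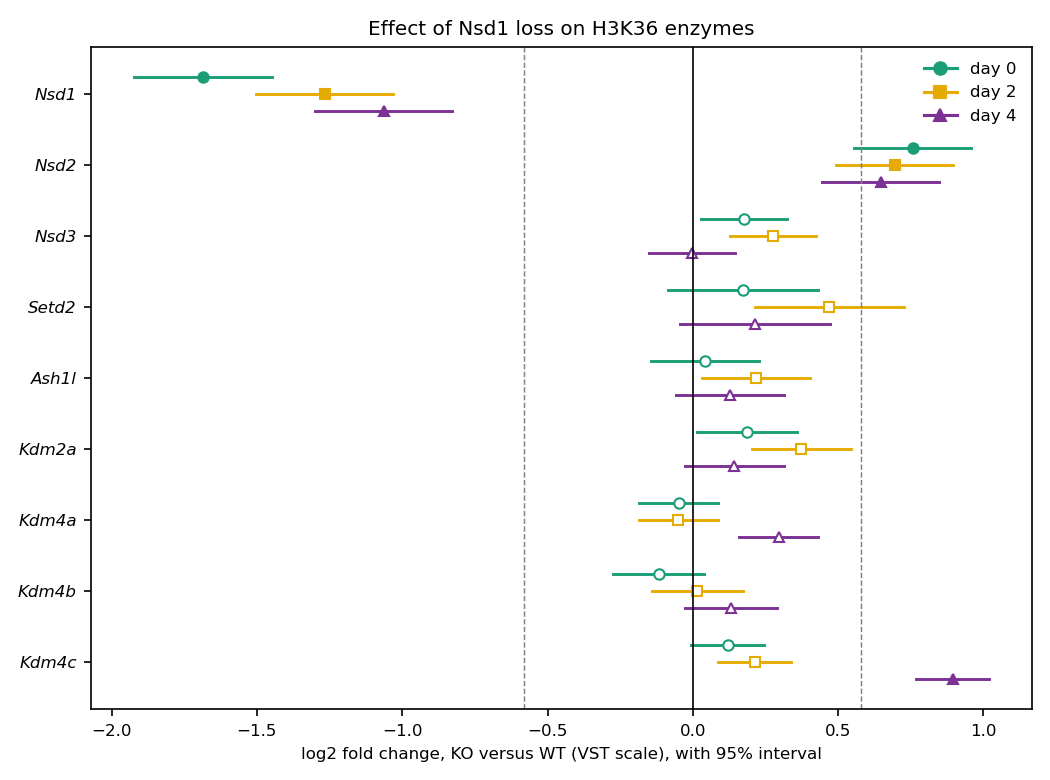
Log2 fold change of KO versus WT on the VST scale (horizontal axis) for the 9 enzymes at day 0, 2 and 4, with 95% intervals from limma as bars, filled markers for DEGs and dashed lines at ±0.58. Nsd2 is filled at all 3 days (0.76, 0.70 and 0.65), Kdm4c is filled at day 4 (0.89), and the remaining enzymes other than Nsd1 lie between the dashed lines.

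At each day some of the other 8 enzymes had all 4 KO libraries above both WT libraries, namely 4, 6 and 4 of them at day 0, 2 and 4, and none had all 4 below. Over all genes, 23.1%, 26.2% and 23.9% were placed above in this way and 24.3%, 31.4% and 25.9% below. The change of the KO effect with time was tested as an interaction. Between day 0 and day 4 the effect on Kdm4c increased by 0.77 (95% interval 0.60 to 0.95, limma, adjusted p = 5.77e-07) and that on Kdm4a by 0.34 (0.15 to 0.54, adjusted p = 0.00759). Nsd1 itself was less reduced at day 4, by 0.62 (0.29 to 0.96, adjusted p = 0.00575). Between these days Nsd1 fell by 0.52 within WT (limma, adjusted p = 0.00215). Within KO it changed by 0.10 (95% interval −0.09 to 0.29, limma, adjusted p = 0.417). By the DEG rule Kdm4c and Nsd1, 2 of the 9 enzymes, were called, where 2.81% of all genes were called in this direction, and at an adjusted p under 0.05 these 3 were, where 12.7% of all genes were. Nsd1 was not a DEG in this test by limma-voom, nor when any 1 of 9 of the 18 libraries was left out, and the adjusted p of Kdm4a was 0.0698 without the second WT replicate of day 4. Most of the change in Kdm4c fell between day 2 and day 4, with a difference of 0.68 (adjusted p = 3.73e-06), and Kdm4a changed by 0.35 in that step (adjusted p = 0.00721, and 0.0651 without the second WT replicate of day 4). Nsd3 moved the other way in that step, by −0.28 (adjusted p = 0.0426), and 29.1% of all genes passed an adjusted p of 0.05 there. The call for Nsd3 was lost in 13 of 28 alternatives, with values from −0.47 to −0.13 and an adjusted p of up to 0.29. Between day 0 and day 2, where 21.7% of all genes passed, no enzyme passed an adjusted p of 0.05 in this test by limma or limma-voom, with 1 of the 9, Nsd1, at an unadjusted p under 0.05, as were 33.5% of all genes (difference 0.42, adjusted p = 0.0681).

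Within WT cells, differentiation lowered the KDM4 genes. From day 0 to day 4, Kdm4c fell by 1.30 on the log2 scale (limma, adjusted p = 2.81e-12), Kdm4b by 0.89 (adjusted p = 2.67e-08) and Kdm4a by 0.72 (adjusted p = 7.00e-08), whereas Nsd2 rose by 0.77. These 4 of the 9 enzymes were DEGs, and 13.8% of all genes were. Nsd1 itself fell by 0.52 (adjusted p = 0.00215), and Kdm2a increased by 0.24 (adjusted p = 0.0441), so that 6 of the 9 passed an adjusted p of 0.05, as did 49% of all genes. The call for Kdm2a was lost in 11 of 28 alternatives. In the KO cells, Kdm4b fell by 0.64, Kdm4c by 0.53 and Kdm4a by 0.38 in the same period, and Nsd2 rose by 0.66. Nsd2 and Kdm4b were DEGs in KO cells, where 6.5% of all genes were, and 6 of the 9 passed an adjusted p of 0.05, as did 47.6% of all genes. Kdm4b thus fell in both genotypes, and the difference between the genotypes in its change was 0.25 (95% interval 0.03 to 0.47, adjusted p = 0.094). This difference ranged from 0.19 to 0.38 over 28 alternatives and passed an adjusted p of 0.05 in 4 of them. Nsd3, Setd2 and Ash1l did not pass an adjusted p of 0.05 in WT between day 0 and day 4. At day 2, Nsd3 was lower in WT than at day 0 by 0.25 (adjusted p = 0.0199), and at day 4 it was higher than at day 2 by 0.26 (adjusted p = 0.0136).

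KO-1 was tested against KO-2 in a fit with 9 groups, 1 for each line and day. No enzyme was a DEG between the clones at any day, with 3 of the 9 at an unadjusted p under 0.05 at day 0, 3 at day 2 and 6 at day 4, where 14.8%, 12.3% and 25.3% of all genes were. Of all genes, 0.029%, 0.0435% and 0.251% were DEGs between the clones. By limma-voom, Nsd1 at day 4 was called. At day 4, Nsd1 was higher in KO-1 by 0.41 (limma, adjusted p = 0.00294), Setd2 by 0.40 (adjusted p = 0.00526), Ash1l by 0.27 (adjusted p = 0.0221) and Kdm2a by 0.20 (adjusted p = 0.042). At that day 12.8% of all genes passed an adjusted p of 0.05 between the clones, and 0.551% and 0.966% did at day 0 and day 2, where none of the 9 enzymes did. The first KO-1 replicate of day 4 was the highest of the 6 libraries of that day for Nsd2, Setd2, Ash1l and Kdm2a. Without it the adjusted p of the clone difference was 0.0748 for Nsd1, 0.139 for Setd2, 0.183 for Ash1l and 0.243 for Kdm2a. The lowest difference with any 1 library left out was 0.32 for Nsd1, 0.28 for Setd2, 0.25 for Ash1l and 0.17 for Kdm2a. Kdm2a lost this call in 12 of 26 alternatives. Nsd2 and Kdm4c were higher than WT in each clone taken alone, Nsd2 by 0.77 and Kdm4c by 0.94 in KO-1 at day 4, and by 0.53 and 0.85 in KO-2.

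The order of the 9 enzymes by level was read from normalized counts per kb of longest transcript. In WT cells at day 0 the order was Kdm4c (693 ± 10.5), Kdm4a (564 ± 11.1), Kdm4b (371 ± 8.74), Nsd1 (275 ± 15.8), Setd2 (274 ± 9.91), Kdm2a (240 ± 3.60), Nsd2 (167 ± 2.06), Nsd3 (78.6 ± 3.64) and Ash1l (39.2 ± 1.34) (SD, n = 2 for each). Only Nsd1 and Setd2 overlapped as neighbours in this order, and they changed places with the union of exons as length. In WT cells at day 4, Nsd2 (336 ± 4.96) stood first, and Setd2 (311 ± 31.4), Kdm2a and Kdm4a followed, each overlapping with the one before it. In the KO cells of day 4 the highest levels were those of Nsd2 (572 ± 73.6) and Kdm4c (489 ± 29.0), which overlapped, and the lowest were those of Nsd3, Nsd1 and Ash1l (SD, n = 4). With the union of exons, Nsd2 was the fourth of the 9 at day 4 in both genotypes. The 3 KDM4 genes had the highest levels per kb in WT cells at day 0 under both lengths.

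Across the 18 libraries the enzymes fell into patterns that can be described by correlation of their VST values, although libraries share genotype, day and line and are not independent points. Kdm4a and Kdm4b had a Pearson r of 0.93 with each other, and Kdm4a and Kdm4c of 0.85. Nsd2 and Kdm2a had r = 0.89, Setd2 and Ash1l had r = 0.79, and Nsd1 and Nsd2 had r = −0.71. Among 10228 genes with a mean of at least 100 normalized counts, the pattern most like that of Nsd2 was found for Impact, Pitpnm2 and Etv6 (r = 0.98, 0.98 and 0.97). For Kdm4c it was Cbx7, a Polycomb protein (r = 0.98), Zfp980 and Gm21411, for Kdm4a it was Mcm5, a subunit of the replicative helicase (r = 0.97), and Fgf4, and for Kdm4b it was Stag3, Tbl2 and Rest (r = 0.98 for each). Nsd1 was most like Cntn2, Mfsd13a and Acad10 (r = 0.96, 0.95 and 0.95), and Nsd3 most like Edc4, Smurf1 and Ep400 (r = 0.94, 0.94 and 0.91). Setd2 was most like Nktr, Rapgef2 and Gapvd1, Kdm2a most like Rdx, Morc2a and Mbd5, and Ash1l, with the lowest values, most like Nfatc3 and Zfp512b (r = 0.88 and 0.87).

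The genes next to the 9 enzymes were examined to see whether whole stretches of a chromosome moved with them. Up to 2 protein-coding genes on each side were taken from the gene order of the RefSeq annotation, and 30 of them were measured. None was a DEG at day 0, and 1 was at day 2 and at day 4, the gene Ddhd2 near Nsd3 (0.58 and 0.70). These 0, 1 and 1 of 30 compare with 2.61%, 6.38% and 7.58% of all genes. The limit on the fold passes over neighbours with few counts, and others with more counts also lay under it while passing an adjusted p of 0.05. Over all genes, 15.3%, 21.8% and 18% were higher by that rule at day 0, 2 and 4, and 14.4%, 24.2% and 19.2% lower. The neighbours named next are examples picked among the 30, and not all that passed are named. Ptprd near Kdm4c averaged 47.7 normalized counts in WT and 4.07 in KO at day 4 (log2 fold change −0.39, limma, adjusted p = 5.0e-06), and Nbeal2 near Setd2 averaged 221 and 468 (0.48, adjusted p = 3.4e-05). At day 2, St3gal3 near Kdm4a averaged 138 and 308 (0.43, adjusted p = 2.1e-06) and Nradd near Setd2 averaged 115 and 267 (0.42, adjusted p = 3.7e-04). On the same day Uhrf1 near Kdm4b averaged 5099 in WT and 7584 in KO (0.52, adjusted p = 2.9e-07). Dmac1 near Kdm4c averaged 603 and 311 (−0.48, adjusted p = 8.4e-05). Fgfr1 near Nsd3 changed by 0.29, 0.28 and −0.31 at day 0, 2 and 4 (adjusted p = 0.0016, 0.0015 and 5.9e-04). The measured neighbours of Nsd2 were Letm1, Nelfa and Fgfr3. Letm1 averaged 1022 normalized counts in WT and 1172 in KO at day 0, and its log2 fold change was 0.13, −0.01 and 0.09 over the 3 days. Nelfa, a subunit of the negative elongation factor, changed by −0.09, 0.14 and 0.24, and Fgfr3, a growth factor receptor, by −0.19, −0.16 and 0.05. Fgfr3 had few counts, with means of 82.8 in WT and 45.8 in KO at day 0 and of 37.4 and 16.8 at day 2. Of these, Nelfa at day 4 (limma, adjusted p = 0.0063) and Fgfr3 at day 0 and day 2 (adjusted p = 0.0119 and 0.0199) passed an adjusted p of 0.05.

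Of the 11 further H3K36 enzymes and their relatives, which include Setd5, Smyd2, Setmar and the demethylase Kdm2b, 1 was a DEG. Kdm2b, which removes the lower states of H3K36 methylation and brings a Polycomb complex to CpG islands, had 3086 and 3381 normalized counts in the WT libraries of day 2 and 1791 to 2026 in those of KO. The groups did not overlap, and the log2 fold change was −0.63 (SE 0.08, limma, adjusted p = 2.95e-06). It was −0.17 at day 0 (adjusted p = 0.128) and −0.06 at day 4 (adjusted p = 0.596). In this list 0, 0 and 0 genes were higher and 0, 1 and 0 were lower as DEGs at day 0, 2 and 4, and at an adjusted p under 0.05 there were 3, 0 and 1 higher and 0, 3 and 3 lower. Over all genes 15.3%, 21.8% and 18% were higher and 14.4%, 24.2% and 19.2% lower at an adjusted p under 0.05, and 2.61%, 6.38% and 7.58% were DEGs. The change of Kdm2b ranged from −0.78 to −0.57 over the alternatives and was under the limit on the fold in 3 of 29. The median log2 fold change was 0.04, −0.04 and −0.06.

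Of 19 proteins that read H3K36 methylation, through PWWP, Tudor or chromo domains, 1 was a DEG at day 0, 4 at day 2 and 6 at day 4, against 2.61%, 6.38% and 7.58% of all genes. At an adjusted p under 0.05, 8, 10 and 8 of the 19 were higher and 4, 7 and 3 lower at the 3 days. Over all genes 15.3%, 21.8% and 18% were higher by that rule and 14.4%, 24.2% and 19.2% lower. The list had a median log2 fold change of 0.08, 0.14 and 0.02. The DNA methyltransferase Dnmt3b changed direction with time: it had 5743 and 6071 normalized counts in WT and 9240 to 10153 in KO at day 0, 42343 and 45174 in WT and 26765 to 29324 in KO at day 2, and 5640 and 5919 in WT and 17612 to 21062 in KO at day 4. The log2 fold changes were 0.67, −0.64 and 1.62 (limma, adjusted p = 7.39e-07, 7.09e-07 and 3.07e-13), and WT and KO were apart at each day. After quantile normalization the value of day 2 was −0.33, under the limit on the fold (adjusted p = 7.2e-04). Dnmt3a rose at day 4, from 2228 and 2444 in WT to 5848 to 7095 in KO (log2 fold change 1.26, adjusted p = 1.03e-11), and at day 2 it was lower in KO, with 9898 and 10127 in WT and 7946 to 9026 in KO (−0.20, adjusted p = 0.0245).

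The mismatch repair protein Msh6 had 2861 and 3145 normalized counts in WT and 7321 to 10276 in KO at day 4, with log2 fold changes of 0.77 at day 2 and 1.34 at day 4. Brd1 (0.61) and Brpf3 (0.58), subunits of histone acetyltransferase complexes, were DEGs at day 2. Brpf3 lay on the limit of the fold and was under it in 6 of 29 alternatives (0.49 to 1.01), and Brd1 was in 1 (0.51, after quantile normalization). Phf19, a Polycomb-associated Tudor protein, was a DEG at day 4 (0.66), with means of 42.6 normalized counts in WT and 229 in KO. Hdgf (−0.64) and Pwwp2b (−0.67) fell at day 4, Pwwp2b from a mean of 636 normalized counts in WT to 244 in KO. By limma-voom, which does not compress low counts, Phf19 changed by 2.39 and Pwwp2b by −1.37. Of 12 partners in elongation and H3K36 methylation, Polr2a, the largest subunit of RNA polymerase II, was the DEG of day 2 (0.90, adjusted p = 7.34e-08) and Morf4l2 that of day 4 (−0.62, adjusted p = 2.54e-06). Polr2a had 3821 and 3908 normalized counts in WT and 7081 to 8312 in KO at day 2, and its log2 fold change was −0.33 at day 0 and −0.01 at day 4. This list had a median log2 fold change of −0.02 at each of the 3 days, and its 1 DEG at day 2 and at day 4 compares with 6.38% and 7.58% of all genes. At an adjusted p under 0.05, 0, 5 and 3 of the 12 were higher and 4, 5 and 2 lower, where 15.3%, 21.8% and 18% of all genes were higher and 14.4%, 24.2% and 19.2% lower. The change of Morf4l2 was under the limit on the fold in 2 of 29 alternatives.

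**Figure D4:**
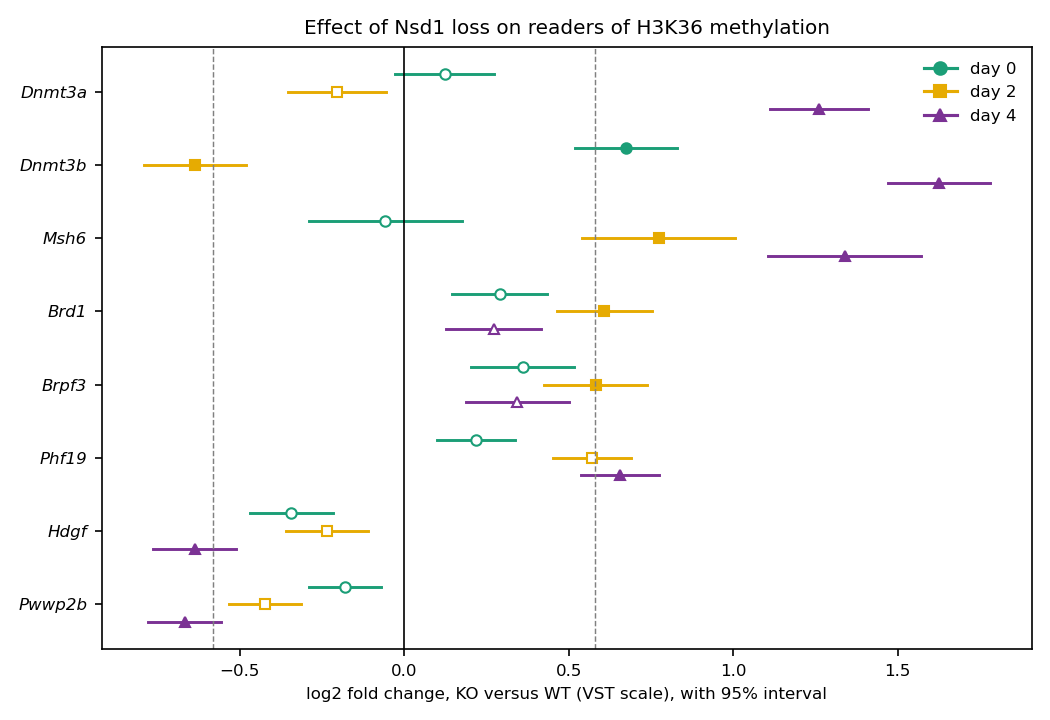
Log2 fold change of KO versus WT on the VST scale (horizontal axis) for the 8 readers of H3K36 methylation that were DEGs at any day, at day 0, 2 and 4, with 95% intervals from limma as bars, filled markers for DEGs and dashed lines at ±0.58. Dnmt3b changes sides between the days (0.67, −0.64 and 1.62), and Dnmt3a (1.26) and Msh6 (1.34) lie to the right at day 4.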

How the data were processed

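RNA was measured in 18 libraries of WT, KO-1 and KO-2 mESCs at 3 days. The authors trimmed the reads (Trim Galore 0.6.7), aligned them to mm39 with STAR 2.7.11a, counted primary, nonduplicated reads on exons with featureCounts 2.0.6, removed genes with a mean count under 1, and deposited DESeq2 1.42.0 VST values on a log2 scale. Inverting the transformation from its floor (8.36) gave whole counts for 100% of values (tolerance 0.01) and the size factors. Of counts from 1 to 10, 76.0% were even, for a reason not found.

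KO and WT were compared in R 4.3.3 with limma 3.58.1 (trended prior, 6 groups, Benjamini-Hochberg adjustment over 20703 genes, 95% intervals). Tables and plots were made with Python 3.11.15 and matplotlib 3.10.9. Normalized counts are the recovered counts divided by the size factors, and their intervals reflect the spread between libraries only. Lengths came from GENCODE M21 on GRCm38, where all 9 enzymes were found.

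The members and lists were chosen with earlier results of these data known. Named genes are the 9 enzymes, the DEGs of 3 related lists, and the 3 genes with the most similar pattern per enzyme (some of these are not reported here), and the neighbours and list members named beside them were picked after their values were seen. Biological replicates are separate samples per the labels, but 1 WT line and 2 clones limit what they represent. An exact permutation test of 4 against 2 libraries cannot give a p below 0.0667 and was not used. The alternatives were limma-voom on the recovered counts, log2(normalized count + 1), each day alone, 9 groups, KO-1 or KO-2 alone, the replicate number as a block, removal of genes below the 25th percentile, median centring, quantile normalization, an untrended prior, each library left out, the union of exons and, chosen after seeing the data, the Nsd1 length without exon 5.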

Additional observations from a re-analysis of the deposited data

Results flagged for a closer look

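In the KO libraries of day 2, Kdm4b had 1 library far from the others. The lowest had 880 normalized counts and the other 3 had 1016, 1023 and 1033, so the gap was 0.888 of the range, above Dixon's 95% critical value for 4 samples. Chance gives such a result in about 1 of 20 groups, and 27 groups were examined.

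The effect of Nsd1 loss differed between days for 4 enzymes at an adjusted p under 0.05, by the test of the difference itself (limma, Benjamini-Hochberg adjustment). From day 0 to day 4 it changed by 0.77 for Kdm4c, by 0.34 for Kdm4a and by 0.62 for Nsd1, where 12.7% of all genes were called in this direction. Nsd1 was no longer a DEG in this test in 12 of 28 alternatives, and Kdm4a had an adjusted p of 0.0698 without the second WT replicate of day 4. From day 2 to day 4 it changed by 0.68 for Kdm4c, by 0.35 for Kdm4a and by −0.28 for Nsd3, which lost its call in 13 of 28 alternatives (adjusted p up to 0.29), and 29.1% of all genes passed in this step. The mESC, primitive streak and fibroblast marker sums also differed between WT and KO at day 4, and their part in these differences was not tested.

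KO-1 and KO-2 differed at day 4, with KO-1 higher by 0.41 for Nsd1, 0.40 for Setd2, 0.27 for Ash1l and 0.20 for Kdm2a, where 12.8% of all genes passed an adjusted p of 0.05. All 4 calls were lost without the first KO-1 replicate of day 4 (adjusted p = 0.0748, 0.139, 0.183 and 0.243). With any 1 library left out, the lowest differences were 0.32, 0.28, 0.25 and 0.17. For Kdm2a the call was lost in 12 of 26 alternatives (adjusted p up to 0.29). In the same libraries the fibroblast marker sum was 783 and 818 in KO-1 and 1459 and 1422 in KO-2, and the primitive streak sum was 856 and 871 in KO-1 and 328 and 394 in KO-2. Their part in the clone difference was not tested.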

How the results depend on the processing

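Counts of enzymes called as DEGs (Nsd1 included) moved by over 1.5 times in 3 of the comparisons. In the KO effect at day 4 against day 0, limma-voom, log2(normalized count + 1) and KO-2 alone each gave 1 call (Kdm4c) in place of 2, and leaving out a library gave 1 to 2. Within KO cells from day 0 to day 4, KO-2 alone gave 1 call (Kdm4b) in place of 2. Between the clones, limma-voom and log2(normalized count + 1) each gave 1 call (Nsd1 at day 4) in place of 0. Leaving out each library gave 2 to 2 calls at day 0 and at day 2, 2 to 3 at day 4 and 4 to 5 in WT cells. Of 2133 values of single genes, the 9 enzymes and the named DEGs of the related lists, 1976 kept direction and side of the threshold, 88 lost the call, 35 gained it and 34 changed sign. The total of DEGs was 541, 1321 and 1569 at day 0, 2 and 4, and 2752, 4949 and 4957 by limma-voom and 2667, 5176 and 4602 on log2(normalized count + 1), where the same limit on the fold applies to an uncompressed scale.

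No value that passed an adjusted p of 0.05 changed sign. For KO versus WT at day 0, Ash1l was −0.038 with KO-2 alone, −0.0036 after quantile normalization and −0.014 to 0.096 with a library left out, and Kdm4a was 0.0044 with KO-1 alone. At day 2, Kdm4a was 0.0066 with KO-2 alone and 0.0032 after centring, and Kdm4b was −0.021 with KO-1 alone, −0.11 after quantile normalization and −0.034 to 0.064 with a library left out. At day 4, Nsd3 was 0.0048 by limma-voom, 0.089 with KO-1 alone, 0.015 after quantile normalization, 0.025 after centring and −0.073 to 0.068 with a library left out, and Ash1l was −0.0052 with KO-2 alone. In the KO effect at day 4 against day 0, Setd2 was −0.035 with KO-2 alone and −0.066 to 0.13 with a library left out, and Kdm2a was 0.0063 after quantile normalization and −0.094 to 0.0073 with a library left out. From day 0 to day 4, Nsd3 in WT was −0.083 after quantile normalization and −0.056 to 0.084 with a library left out, and Nsd1 in KO was −0.043 with KO-2 alone and −0.0013 to 0.19 with a library left out. Ash1l in KO was 0.012 by limma-voom, 0.050 with KO-1 alone, 0.00094 after centring and −0.056 to 0.054 with a library left out.

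On average, samples with the same replicate number did not deviate together (mean r = −0.05 over 36 pairs of groups and 10351 genes). Single pairs ranged from −0.61 to 0.64, with 13 of the 36 over 0.1. At day 2 the second replicate was above the first in WT, KO-1 and KO-2 for Nsd1, Nsd2, Setd2, Kdm2a and Kdm4c. It was below the first in each line for Nsd3, and the lines were mixed for Ash1l, Kdm4a and Kdm4b. A deviation shared by replicate number within a day was not tested. With the replicate number as a block, the DEG totals were 540, 1315 and 1568, the 2, 2 and 3 enzymes called at the 3 days stayed 2, 2 and 3, and Kdm2a lost its call at an adjusted p under 0.05 in WT from day 0 to day 4 (0.24, adjusted p = 0.0539) and between the clones at day 4 (0.20, adjusted p = 0.0578).

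Depth limits the low genes most, and Ash1l, with the fewest counts among the enzymes, has its fold changes most compressed on the VST scale. WT is 1 line, so a difference between lines unrelated to Nsd1 cannot be told apart from the effect of its loss.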
